A study of Mus musculus with 30 samples.

Results

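Regulators of G protein signalling (RGS proteins) and 2 neighbouring components of the same circuit, the small GTPase Gem and the G protein γ subunit Gng4, were followed in mouse macrophages given a β2 adrenergic agonist and lipopolysaccharide (LPS). The set comprised 9 genes, Rgs1, Rgs2, Rgs16, Rgs18, Rgs10, Rgs14, Rgs19, Gem and Gng4, of 24761 gene symbols in the deposited table. Members were matched by symbol, and each gene was read from its transcript line with the highest mean level. All cells were wild-type C57Bl/6 macrophages grown from bone marrow with culture-derived M-CSF, the growth factor that drives macrophage differentiation. They had 2 h of vehicle (DMSO) or of 1 µM metaproterenol hemisulfate (MPH), an agonist of the β2 adrenergic receptor. LPS, a cell wall component of Gram-negative bacteria that triggers inflammatory signalling, followed at a labelled 100 ng/µL for 1 or 2 h, and the 0 h cells had no LPS. There were 7 vehicle cultures, named D3 to D6, UKD, r1 and r2, and 3 cultures with MPH, named M2 to M4. Each gave 1 RNA-seq library per time, 30 in all. Nothing in the labels says whether these 10 cultures came from separate mice, so p-values measure the spread between libraries of these cultures. The main fits count the libraries of a culture at different times as separate, which can make p-values for MPH against DMSO too small. Those for LPS, compared within cultures, can be too large. The series asks how β2 adrenergic signalling alters early inflammatory transcription, and the present set asks how the regulators of G protein signalling themselves moved.

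A receptor such as the β2 adrenergic receptor acts by loading the α subunit of a heterotrimeric G protein with GTP, which frees the α subunit and the βγ dimer to signal. RGS proteins speed the hydrolysis of that GTP and so shorten the signal, mostly on the inhibitory and Gq classes of α subunit, and in leukocytes they limit responses to chemokines. Gem belongs to the RGK family of small GTPases, which block voltage-gated calcium channels, and Gng4 encodes a γ subunit, the membrane-anchored part of the βγ dimer.

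The β2 receptor raises cyclic AMP, whose transcription factor CREB binds the cyclic AMP response element TGACGTCA or its half-site TGACG, and LPS activates AP-1 (TGANTCA) and the κB family. Promoter windows of RefSeq (GRCm38.p6), from 250 bases before to 50 after a start, were found for 5 members, Rgs2, Rgs10, Rgs16, Rgs19 and Gng4. Both strands were searched, and a TGACGTCA match also counts as TGACG. The sequences are the 190 bases up to the start of Gng4, the member that differed with MPH, of Rgs2, which fell most after LPS, and of Rgs16, which rose from near 0. Each is written 5′ to 3′ with matches in capitals.
Gng4, chr13:13784117-13784306, plus strand: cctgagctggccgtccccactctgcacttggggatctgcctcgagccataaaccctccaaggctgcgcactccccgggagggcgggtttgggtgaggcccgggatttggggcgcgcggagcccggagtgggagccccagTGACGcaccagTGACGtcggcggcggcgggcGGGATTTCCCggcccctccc
Rgs2, chr1:144004150-144004339, minus strand: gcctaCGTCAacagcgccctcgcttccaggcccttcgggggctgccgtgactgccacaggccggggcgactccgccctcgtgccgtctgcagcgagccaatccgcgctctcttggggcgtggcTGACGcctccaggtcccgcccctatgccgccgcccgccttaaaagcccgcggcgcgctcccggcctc
Rgs16, chr1:153740163-153740352, plus strand: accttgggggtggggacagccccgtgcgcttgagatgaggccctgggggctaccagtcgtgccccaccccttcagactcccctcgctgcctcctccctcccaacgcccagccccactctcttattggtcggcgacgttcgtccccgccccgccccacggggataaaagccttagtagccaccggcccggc
In Gng4 the half-site TGACG began 51 and 40 bases before this start and a κB match began 20 bases before it. The other Gng4 window, at an upstream start, held no match. Rgs2 held TGACG on the written strand 67 bases before its start and, as CGTCA, on the opposite strand 185 bases before it. The windows of Rgs16, Rgs10 and Rgs19 held none of the 4 motifs. Of 32851 windows of this length, 20.8% held TGACG, 1.79% TGACGTCA, 7.81% TGANTCA and 5.8% a κB match. These are matches of letters, and binding was not measured.

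The values are RPKM, that is, reads scaled by transcript length and sequencing depth, so levels of different genes are compared per length. Estimated depth ran from 5.38 to 92.1 M reads (median 41.3), and the 1 h libraries of D6, D4 and UKD were the shallowest. Summed macrophage markers stood at 3757 to 7156 RPKM, and summed B cell, T and NK cell and dendritic cell markers stayed at or below 1.49 RPKM. The highest sums were 2.46 RPKM for stromal and 4.04 for mast cell markers. They were 75.9 for megakaryocyte and platelet markers, mostly Pf4, and 89.0 for neutrophil markers. After LPS the median gene was 0.15 lower at 1 h and 0.25 lower at 2 h on the log2 scale under DMSO. Rescaling the libraries by the median of ratios moved these medians by 0.14 and 0.23, and under MPH that at 2 h by 0.21. The share of called genes that were higher was then 55.8% in place of 25.8% at 1 h and 47.3% in place of 19.4% at 2 h under DMSO. It was 49.2% in place of 30% from 1 to 2 h, and under MPH 74.8% in place of 61.6% at 1 h and 57.5% in place of 28.8% at 2 h. D3 deviated from the mean of its group together with M2, D4 with M3 and D5 with M4 (Pearson r of 0.74 to 0.91 over genes at the 3 times), so these pairs are given beside the groups. They were picked from these same data, so a block by these pairs gives smaller p-values partly through that choice. The 1 h library labelled M4 stood with the vehicle libraries in Gng4, and values without it are given beside the 1 h differences under MPH and where it changes a call. As Gng4 itself set this library apart, Gng4 results without it are no separate test.

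Before LPS the most abundant member was Rgs10, at 58.9 ± 14.3 RPKM (SD, n = 7) under DMSO. Rgs1 (32.3 ± 11.4), Rgs2 (25.5 ± 5.44) and Rgs19 (24.95 ± 2.58) followed, and the ranges of neighbours in this order overlapped. Rgs14 (8.95 ± 2.73) and Rgs18 (6.81 ± 2.87) came next and overlapped each other, below the range of Rgs19. Gem (0.366 ± 0.333), Gng4 (0.290 ± 0.386) and Rgs16 (0.0886 ± 0.0763) were near 0 and overlapped one another. At 1 h of LPS Rgs1 led every one of the 7 libraries, without overlap with Rgs10, and Gem and Rgs19 followed with overlapping ranges, Gem being above Rgs19 in 3 of 7 libraries. At 2 h Rgs1 exceeded Rgs10 in 5 of 7 libraries. With MPH at 2 h Gng4 (mean 8.01 RPKM) held the fourth place by mean level where it was last under DMSO, overlapping Gem and above it in 2 of 3 libraries, and Rgs16 was last.

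**Figure D1:**
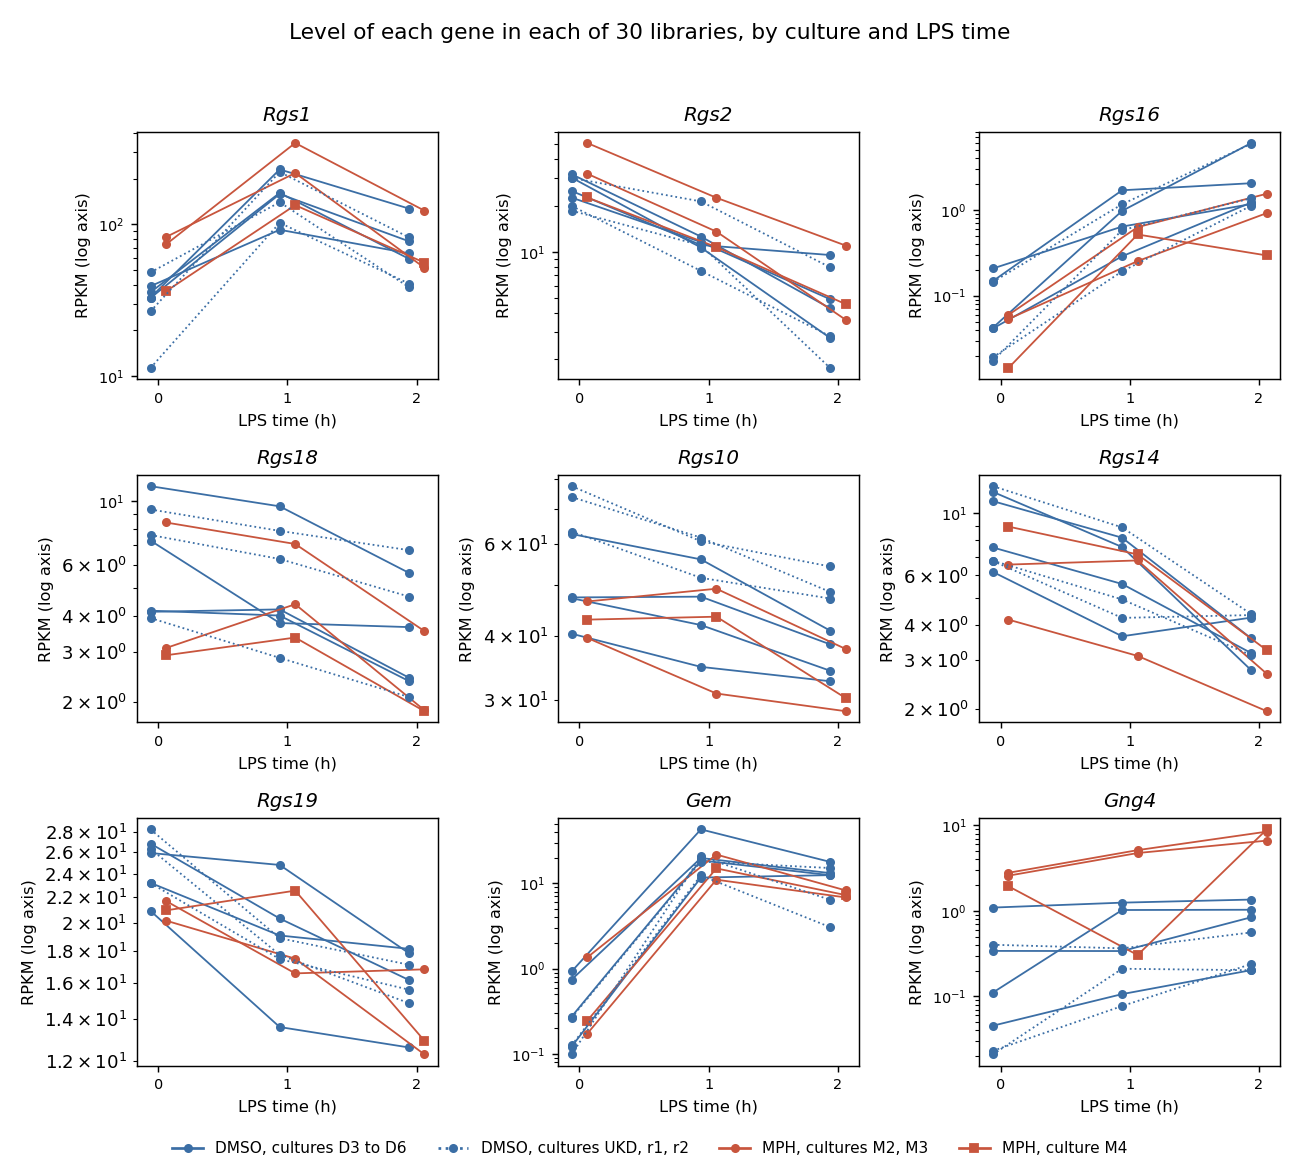
Level of each gene in RPKM (log axis) against hours of LPS, with 1 line per culture. Blue lines are the 7 DMSO cultures, red lines the 3 MPH cultures and squares M4. Rgs1 and Gem peak at 1 h, Rgs2 falls at each step, and the red lines lie above the blue ones in Gng4 except for M4 at 1 h.

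Rgs1, an inhibitor of Gi and Gq signalling that damps chemokine responses in leukocytes, came to hold the largest share of the RGS transcripts at 1 h of LPS. Its share of the summed RPKM of 21 RGS genes had a median of 22.0% at 0 h (range 7.38 to 26.9), 63.7% at 1 h (48.2 to 71.8) and 48.7% at 2 h (32.1 to 61.9) under DMSO. The shares at 0 h and 1 h did not overlap. Rgs10 made up 35.2%, 18.3% and 28.9% (medians), and Rgs2 17.4%, 4.61% and 3.24%. With MPH the median share of Rgs1 was 36.5%, 73.7% and 50.2%, and its 3 values at 0 h (26.2, 36.5 and 42.4%) overlapped the DMSO range only at its top. The 14 other RGS genes together held 0.565 to 2.92% of the sum in any library, and 11 of them stayed below 1 RPKM in all 30 libraries. The summed level itself was 154 RPKM at 0 h, 248.7 at 1 h and 132 at 2 h (medians, DMSO).

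**Figure D2:**
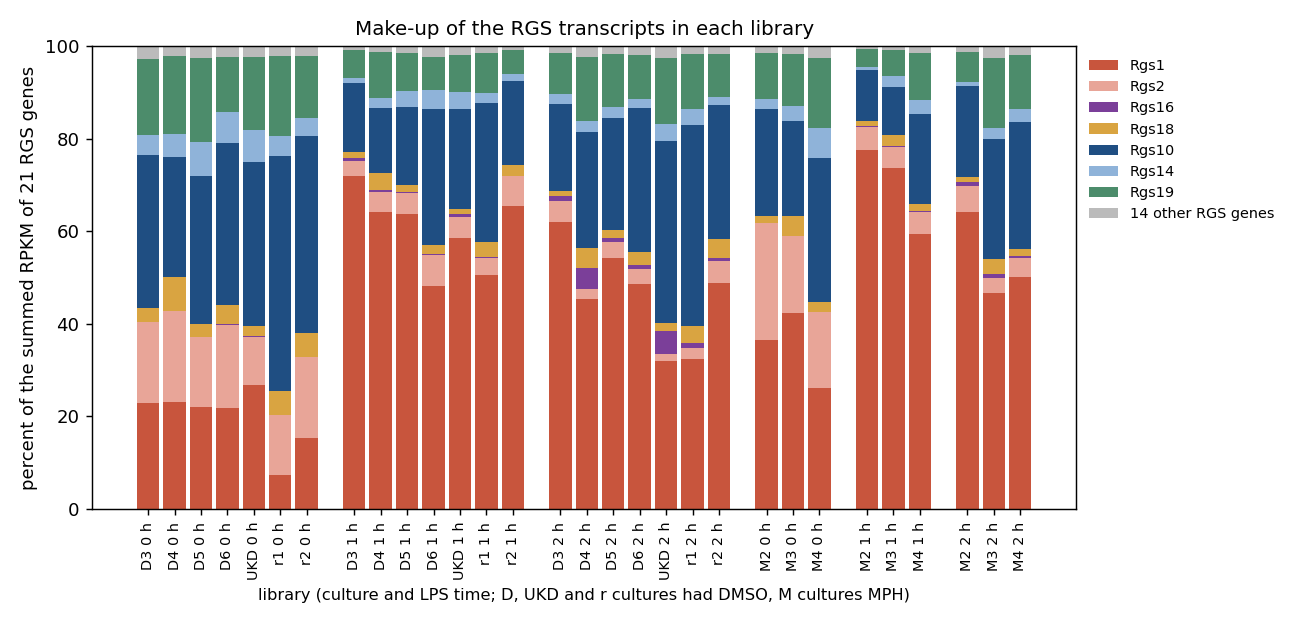
Make-up of RGS transcripts, as the percent that each of 7 RGS members and the 14 other RGS genes hold of the summed RPKM in each of 30 libraries. The Rgs1 segment widens from at most 26.9% at 0 h to at least 48.2% at 1 h under DMSO, and the Rgs2 segment shrinks.

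LPS under DMSO changed 6 of 9 members at 1 h (3 higher, 3 lower), where 20.3% of 10212 genes tested passed (limma, adjusted p under 0.05). At 2 h 8 of 9 had changed against 0 h (3 higher, 5 lower), where 54.1% of all genes passed, and from 1 to 2 h 5 of 9 (1 higher, 4 lower), where 22% passed. The median log2 difference of the members was -0.21 at 1 h and -0.46 at 2 h, beside -0.15 and -0.25 over all genes. All 9 members passed the filter on low values, Gem and Rgs16 through their libraries with LPS. Within D3 to D6 alone Rgs16, Rgs14 and Rgs19 no longer passed at 1 h (adjusted p of 0.225, 0.391 and 0.457), nor Rgs18 and Rgs10 at 2 h (0.134 and 0.0938), nor Rgs1, Rgs16 and Rgs14 from 1 to 2 h (0.0901, 0.243 and 0.162), with 4 cultures in place of 7. Without the shallow 1 h libraries of D4, D6 and UKD the calls of Rgs16 and Rgs14 at 1 h (0.065 and 0.0578) and of Rgs14 from 1 to 2 h (0.115) were lost. Fewer cells of a type and less RNA per cell cannot be told apart in these bulk samples.

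Of the R4 subfamily, small RGS proteins that act on Gi and Gq, Rgs1 stood at 11.3 to 48.1 RPKM (median 32.8) at 0 h, 92.0 to 230 (158) at 1 h and 38.5 to 127 (64.3) at 2 h. All 1 h values lay above all 0 h values, and the level fell back in each culture by 2 h. Rgs1 rose by 2.30 at 1 h on the log2(RPKM + 0.5) scale (SE 0.28, limma adjusted p = 6.35e-06), in 7 of 7 cultures and by 2.35- to 9.07-fold. It was still 1.10 higher at 2 h (adjusted p = 0.00309, 6 of 7 cultures, UKD being lower), after a fall of 1.21 from 1 to 2 h (adjusted p = 0.0046).

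Rgs2, which prefers Gq and is itself known as a cyclic AMP-induced gene, went the other way. It was at 18.5 to 32.0 RPKM (median 24.9) at 0 h, 7.50 to 21.3 (11.1) at 1 h and 1.75 to 9.52 (4.28) at 2 h. The 2 h values lay wholly below the 0 h values. Rgs2 fell by 1.06 at 1 h (SE 0.26, limma adjusted p = 0.00609) and by 2.43 at 2 h (adjusted p = 2.89e-07), in 7 of 7 cultures each. D4, at 0.0903 of its 0 h level after 2 h, fell most and D3, at 0.383, least.

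Rgs16, an inhibitor of Gi and Gq that is known to be induced by inflammatory stimuli, was detected at 0.0174 to 0.207 RPKM (median 0.0424) at 0 h, in some libraries on 2 or 3 reads. It stood at 0.192 to 1.69 (0.637) at 1 h and 1.12 to 5.99 (1.36) at 2 h, and the 2 h values of D4 (5.99) and UKD (5.87) were far above the other 5. Rgs16 rose by 1.04 at 1 h (SE 0.28, limma adjusted p = 0.0117) and 2.18 at 2 h (adjusted p = 2.87e-06), in 7 of 7 cultures. From 1 to 2 h it rose by a further 1.14 (adjusted p = 0.00568). These differences depend on the constant added before the log, being 2.10 and 3.63 with 0.1 and 0.67 and 1.56 with 1, all past the threshold.

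Rgs18, an RGS gene of blood cells best known from platelets, was at 3.92 to 11.2 RPKM (median 7.28) at 0 h, 2.85 to 9.57 (4.20) at 1 h and 2.09 to 6.74 (3.65) at 2 h. D4 and r2 were the highest libraries at each time, and the ranges overlapped. Rgs18 fell by 0.72 at 2 h (SE 0.23, limma adjusted p = 0.0117), in 7 of 7 cultures. Relative to the shifted median gene the fall was 0.50 (adjusted p = 0.0752). The difference at 1 h was -0.29 (adjusted p = 0.403, or 0.012 with culture as a replicate block) and that from 1 to 2 h -0.44 (adjusted p = 0.189, or 0.000612 with the block). Of 5 megakaryocyte and platelet markers, Pf4 was at 15.5 to 74.9 RPKM, and Itga2b, Gp9, Ppbp and Gp1bb were at or below 0.687 RPKM in every library.

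Of the R12 subfamily, Rgs10, a short Gi inhibitor known to restrain inflammatory output of microglia and macrophages, stood at 40.3 to 77.6 RPKM (median 62.7) at 0 h, 34.8 to 61.7 (51.7) at 1 h and 32.7 to 54.3 (40.9) at 2 h. The ranges overlapped, and all 7 cultures were lower at 2 h than at 0 h. The fall of 0.46 (SE 0.10, limma adjusted p = 0.00092) did not pass relative to the median gene, where it was 0.21 (adjusted p = 0.164). With culture as a replicate block Rgs10 was also lower at 1 h (-0.21, adjusted p = 0.00249) and from 1 to 2 h (-0.25, adjusted p = 0.000443), where the fit without it gave adjusted p = 0.163 and 0.0836. The latter was 0.034 without D4 at 1 h.

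Rgs14, which joins an RGS domain to Ras- and Gα-binding domains, ran from 6.18 to 12.5 RPKM (median 7.55) at 0 h, 3.64 to 8.90 (5.595) at 1 h and 2.76 to 4.37 (3.58) at 2 h. The spread of the cultures narrowed as the level fell, and no 2 h value reached a 0 h value. Rgs14 fell by 1.15 at 2 h (SE 0.17, limma adjusted p = 1.44e-05), in 7 of 7 cultures. The fall of 0.52 at 1 h (adjusted p = 0.0351) held in 8 of 14 removals of 1 library, being lost without D3, r1 or r2 at 1 h or D5, D6 or UKD at 0 h (adjusted p up to 0.0816). It was lost too relative to the median gene (-0.38, 0.206), with no filter (0.073) and with no name series covariate (0.088). Rgs14 was lower at 2 h than at 1 h by 0.63 (adjusted p = 0.0103), although D3 and r1 were slightly higher.

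Rgs19, also called GAIP, is a Gi inhibitor of the RZ subfamily tied to membranes of the secretory pathway. It ranged from 20.9 to 28.3 RPKM (median 25.9) at 0 h, 13.6 to 24.8 (18.9) at 1 h and 12.6 to 18.2 (16.2) at 2 h. The 2 h values lay below all 0 h values. Rgs19 fell by 0.41 at 1 h (SE 0.11, limma adjusted p = 0.0114) and by 0.62 at 2 h (adjusted p = 9.22e-05), in 7 of 7 cultures. Relative to the median gene the falls were 0.26 (adjusted p = 0.105) and 0.38 (adjusted p = 0.00504). From 1 to 2 h the difference of -0.22 (adjusted p = 0.174) passed with the replicate block (0.00796) and without D6 at 1 h (0.0375).

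Gem had the largest log2 difference of the 9 genes at both times. It was at 0.0990 to 0.929 RPKM (median 0.268) at 0 h, 11.7 to 42.8 (18.5) at 1 h and 3.06 to 17.8 (12.5) at 2 h. No 1 h or 2 h value came near the 0 h range, and the shallow D6 library of 1 h was the highest. Gem rose by 4.56 at 1 h (SE 0.27, limma adjusted p = 1.39e-10) and 3.71 at 2 h (adjusted p = 1.76e-09), in 7 of 7 cultures, and by 26.5- to 208-fold in RPKM at 1 h. Its p at 1 h ranked 34 among 10212 genes. From 1 to 2 h it fell by 0.86 (adjusted p = 0.0274), in 6 of 7 cultures, D3 being the exception. This fall was lost without UKD or r1 at either time or D6 at 1 h (adjusted p up to 0.0876), with the constant 0.1 (0.0677), with no filter (0.0595), with no name series covariate (0.0879), relative to the median gene (-0.76, 0.0554), without the 3 shallow 1 h libraries (-0.57, 0.238) and within D3 to D6 (-0.57, 0.488).

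Gng4 was low under DMSO, at 0.0209 to 1.09 RPKM (median 0.111) at 0 h, 0.0770 to 1.25 (0.338) at 1 h and 0.202 to 1.35 (0.559) at 2 h. D3 was the highest DMSO culture at each time, and the 0 h values of D4, D6, r1 and r2 rest on 3.3 to 6.6 estimated reads. Gng4 was higher at 2 h than at 0 h in 7 of 7 cultures, by 0.54 on the log2 scale (SE 0.26), which did not pass (limma adjusted p = 0.0888). It passed with culture as a replicate block (adjusted p = 0.00173), with the constant 0.1 (1.15, adjusted p = 0.047), without D3 at 0 h (0.69, adjusted p = 0.0247) and without D4 at 2 h. At 1 h the difference was 0.30 (adjusted p = 0.439).

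Under MPH, over 3 cultures, Gem and Rgs1 rose at 1 h of LPS, and at 2 h Gem and Rgs16 were higher and Rgs2, Rgs14 and Rgs19 lower. At 1 h 2 of 9 members had thus risen and none had fallen, where 3.08% of 10239 genes passed (limma). At 2 h 2 had risen and 3 had fallen, where 20.7% passed. Gem went from 0.173 (M2), 1.35 (M3) and 0.246 (M4) RPKM to 11.01, 21.7 and 14.9 at 1 h and to 6.83, 8.26 and 7.28 at 2 h. All 3 cultures rose far out of their 0 h range, by 4.02 at 1 h (SE 0.42, adjusted p = 6.16e-06) and 3.02 at 2 h (adjusted p = 7.38e-05). Without the 1 h library labelled M4 the 1 h rise was 4.03 (adjusted p = 5.64e-05).

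Rgs1 under MPH went from 73.6, 82.4 and 36.1 RPKM at 0 h to 344, 218 and 134 at 1 h and 123, 51.7 and 55.8 at 2 h, in M2, M3 and M4. The rise of 1.83 at 1 h (SE 0.41, limma adjusted p = 0.0151) was present in all 3 and was lost without M2 or M3 at 1 h or M4 at 0 h (adjusted p up to 0.124), and was 2.17 without the 1 h library labelled M4 (adjusted p = 0.00713). At 2 h the level was back near that of 0 h, with M3 below it, and the difference was 0.23 (adjusted p = 0.752). Rgs2 went from 51.1, 32.2 and 22.6 RPKM to 22.5, 13.5 and 10.7 and then to 10.97, 3.60 and 4.56. Its groups at 0 h and 1 h met without overlap, and the difference of -1.14 at 1 h passed only with culture as a replicate block (adjusted p = 0.195, or 0.0121), and was -0.92 without the library labelled M4 (adjusted p = 0.374). Rgs2 fell by 2.45 at 2 h (SE 0.40, adjusted p = 0.000298), beside 2.43 under DMSO.

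Rgs16 under MPH went from 0.0597, 0.0534 and 0.0144 RPKM to 0.627, 0.253 and 0.515 and then to 1.54, 0.915 and 0.294. M4 was alone in having less at 2 h than at 1 h. The rise of 1.28 at 2 h (limma adjusted p = 0.0476) was lost in 5 of 6 removals of a library, all but that of M4 at 2 h (adjusted p up to 0.175), with the constant 1 (0.82, adjusted p = 0.104), with no filter (0.103) and without the 1 h library of M4 (0.0532). Rgs14 fell by 1.14 at 2 h (adjusted p = 0.0231), from 4.18, 6.56 and 8.96 to 1.97, 2.68 and 3.25 RPKM, and Rgs19 by 0.58 (adjusted p = 0.044), from 20.2, 21.7 and 20.95 to 12.3, 16.8 and 12.9. Both were lower in 3 of 3 cultures, and neither passed relative to the median gene (adjusted p = 0.0754 and 0.249). Rgs14 was also lost without M2 or M3 at 2 h or M3 or M4 at 0 h (adjusted p up to 0.11), and Rgs19 in all removals but that of M3 at 2 h (adjusted p up to 0.138), with no filter (0.0875) and with the mean over transcript lines (0.05). Rgs18 (-0.76) and Rgs10 (-0.42) passed at 2 h only with culture as a replicate block, with adjusted p = 0.00155 and 0.00188 in place of 0.259 and 0.151. Gng4 at 2 h (1.54, SE 0.60, adjusted p = 0.0785) passed with that block (0.00971), with the constant 1 (1.39, 0.0348) and without the 1 h library of M4 (0.0155), and was higher than at 0 h in 3 of 3 cultures.

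**Figure D3:**
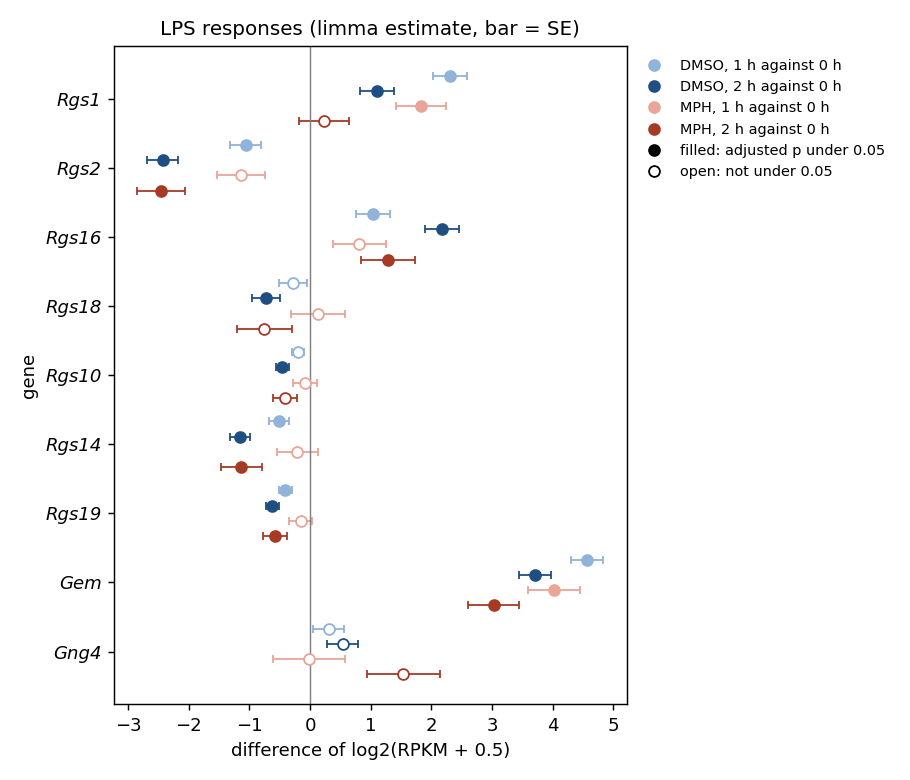
Difference of log2(RPKM + 0.5) from 0 h for each gene at 1 and 2 h of LPS, under DMSO (blue, 7 cultures) and MPH (red, 3 cultures). Points are limma estimates, bars their SE, and filled points have adjusted p under 0.05. Gem, Rgs1 and Rgs16 lie right of 0 and Rgs2 left of it in both treatments.

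Whether MPH altered the LPS response was tested as an interaction. None of the 9 members passed at 1 h, where 0% of 10239 genes did (83 at unadjusted p under 0.05), or at 2 h, where 0.107% did (limma). No member reached an unadjusted p of 0.05 either, where 318 of all genes did at 2 h. The largest interactions were those of Rgs1 (-0.92, SE 0.54), Gng4 (0.89, SE 0.79), Gem (-0.87, SE 0.56) and Rgs16 (-0.83, SE 0.58) at 2 h, each with adjusted p = 1. The interactions at 1 h without the library labelled M4 ranged from -0.43 for Gem to 0.63 for Rgs18, none past the threshold.

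MPH itself was compared with DMSO at each time in M2 to M4 and D3 to D6. Of the 9 members none passed at 0 h and none at 1 h, and 1, Gng4, passed at 2 h (limma). Over all genes 0.869% passed at 0 h, 0% at 1 h (327 at unadjusted p under 0.05) and 0.869% at 2 h. At unadjusted p under 0.05 there was 1 member at 0 h, 1 at 1 h and 3 at 2 h, beside 685, 327 and 930 of 10239 genes. The median log2 difference of the 9 was -0.16, -0.07 and -0.20, beside -0.04, 0.01 and -0.02 over all genes.

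Gng4 at 2 h stood at 6.62, 8.43 and 8.96 RPKM in M2, M3 and M4 and at 1.35, 0.202, 0.841 and 1.03 in D3, D4, D5 and D6. The groups were far apart, and UKD (0.559), r1 (0.202) and r2 (0.239) lay with the other DMSO cultures. Gng4 was higher with MPH by 2.72 (SE 0.56, limma adjusted p = 0.026), in 3 of 3 cultures, and by 4.89-, 41.7- and 10.7-fold within the pairs of D3 with M2, D4 with M3 and D5 with M4. Its p ranked 50 among 10239 genes. The call was kept in 1 of 7 removals of a library, that of D3, with estimates of 2.44 to 2.90 and adjusted p of 0.0283 to 0.114 over the 7. It was lost as well with the constant 0.1 (3.28, adjusted p = 0.0837). With the pairs as a replicate block the difference was 2.76 (adjusted p = 0.00287). These pairs were picked from the same data, so that p-value is no separate support. The block took the calls over all genes at 2 h from 89 to 1233. Summed neutrophil markers, mostly S100a8 and S100a9, stood at 61.2 to 87.3 RPKM with MPH and 6.74 to 89.0 with DMSO at 2 h, and at 39.3 to 51.9 and 5.24 to 46.7 at 0 h, while Ly6g stayed at or below 0.356. Their part in the difference was not tested.

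Before LPS Gng4 was already at 2.58, 2.78 and 1.94 RPKM with MPH, above all 7 DMSO cultures, of which D3 (1.09) came closest. This difference of 1.83 (SE 0.56) did not pass (limma adjusted p = 0.208). It passed against all 7 DMSO cultures (2.00, adjusted p = 0.0132, or 1.76, 0.0299, with the name series as a covariate) and with the pairs as a replicate block (1.87, adjusted p = 0.0362). With the number in the culture's name as a replicate block it was 1.73 (adjusted p = 0.0401), and without the 1 h library labelled M4 the adjusted p was 0.0202. Cultures of the same number deviated in opposite directions, so the name-number block does not join like cultures. At 1 h M2 and M3 were at 4.74 and 5.13 RPKM and the library labelled M4 at 0.304, among D3 to D6 (1.25, 0.106, 0.338 and 1.02). Culture M4 thus held 1.94, 0.304 and 8.96 RPKM at 0, 1 and 2 h, where M2 and M3 were higher at each later time. The 1 h difference was 1.41 with all 3 cultures (adjusted p = 1) and 2.33 without the library labelled M4 (adjusted p = 0.0112). That library was set apart by its Gng4 level, so its removal could not test Gng4 anew at 0 h or 1 h. Over all genes its removal took the calls at 1 h from 0 to 137.

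**Figure D4:**
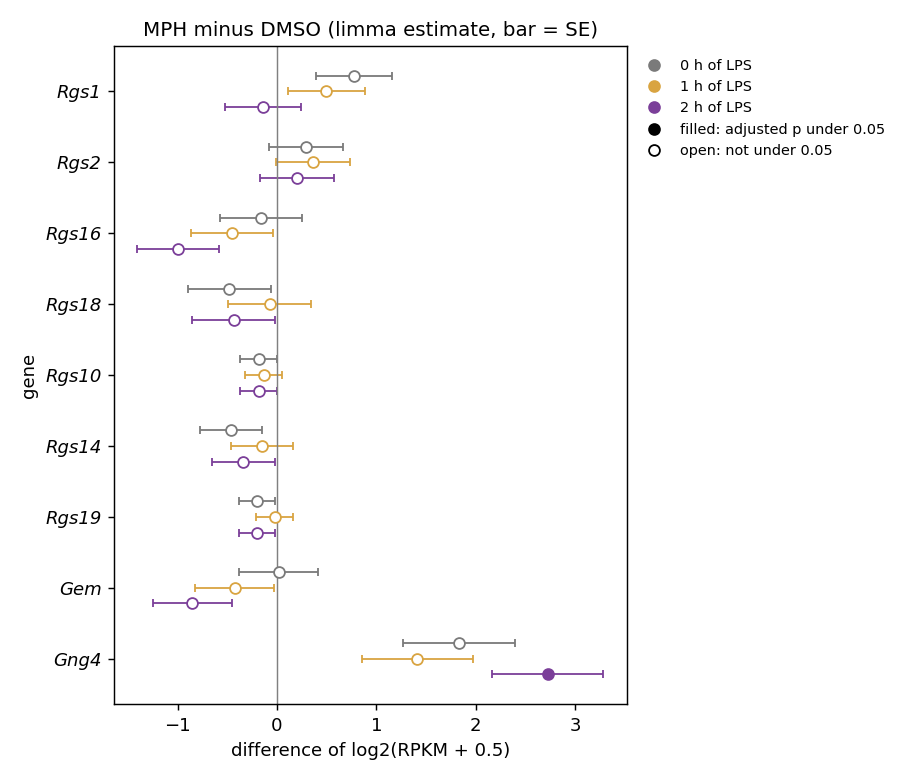
MPH minus DMSO in log2(RPKM + 0.5) for each gene at 0, 1 and 2 h of LPS, from cultures M2 to M4 and D3 to D6. Points are limma estimates and bars their SE. Gng4 lies at 1.83, 1.41 and 2.72, and its 2 h point is the only filled one (adjusted p = 0.026).

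Among the R4 genes Rgs1 at 0 h stood at 73.6 and 82.4 RPKM in M2 and M3, above all 7 DMSO cultures (highest 48.1), and at 36.1 in M4, within their range. The log2 difference from D3 to D6 was 0.78 (SE 0.38, limma adjusted p = 0.793). It was 0.50 at 1 h (0.84 without the library labelled M4) and -0.14 at 2 h, and the within-pair ratios of 2.24, 2.31 and 1.11 at 0 h stood beside 0.97, 0.872 and 0.723 at 2 h. Rgs2 with MPH differed by 0.29, 0.36 (0.59 without the library labelled M4) and 0.20 (SE 0.37), with M2 at 51.1 RPKM before LPS above every other library of that time. Rgs16 was lower with MPH at 2 h, at 1.54, 0.915 and 0.294 RPKM against 2.04, 5.99, 1.22 and 1.16. Its groups overlapped, and the difference of -0.99 (SE 0.41, adjusted p = 0.426) passed only with the name number as a replicate block (-1.50, adjusted p = 0.0368) and with the pairs as a block without the 1 h library of M4 (-1.06, adjusted p = 0.0458). The name-number block joins cultures that deviated in opposite directions, and the pairs were picked from these data. Rgs18 was lower in 3 of 3 pairs at 0 h (ratios 0.749, 0.748 and 0.700) and at 2 h (0.771, 0.628 and 0.786), with group differences of -0.48 and -0.44 (SE 0.42, adjusted p = 1).

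Rgs10, Rgs14 and Rgs19 were lower with MPH in each pair at 0 h and at 2 h, for Rgs10 partly by very little. The pairs were picked from these same data. The share of all genes that were lower in each pair was not counted, so this does not set these genes or Rgs18 apart. The ratios for Rgs10 were 0.876 to 0.982 at these times, those for Rgs19 0.677 to 0.942 and those for Rgs14 0.464 to 0.908, the last with M2 over D3 lowest. The group differences were -0.18 and -0.19 for Rgs10, -0.47 and -0.34 for Rgs14 and -0.20 and -0.20 for Rgs19, none past the threshold (limma adjusted p of 0.984 to 1). Rgs19 at 2 h passed with the pairs as a replicate block without the 1 h library of M4 (-0.31, adjusted p = 0.0448). At 1 h Rgs10 was higher in 2 pairs, Rgs14 in 1 and Rgs19 in 1, the last being the pair with the library labelled M4.

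Gem did not differ at 0 h (0.02, SE 0.40) by more than its error. At 2 h it stood at 6.83, 8.26 and 7.28 RPKM with MPH and at 12.5, 13.2, 12.4 and 17.8 in D3 to D6. These groups did not overlap, and within pairs the ratios were alike, 0.549, 0.628 and 0.585. UKD (3.06) and r1 (6.40) lay below all MPH cultures and r2 (15.1) above them. The difference of -0.85 (SE 0.40) did not pass (limma adjusted p = 0.532, and 0.481 to 0.881 over the removals of 1 library).

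**Figure D5:**
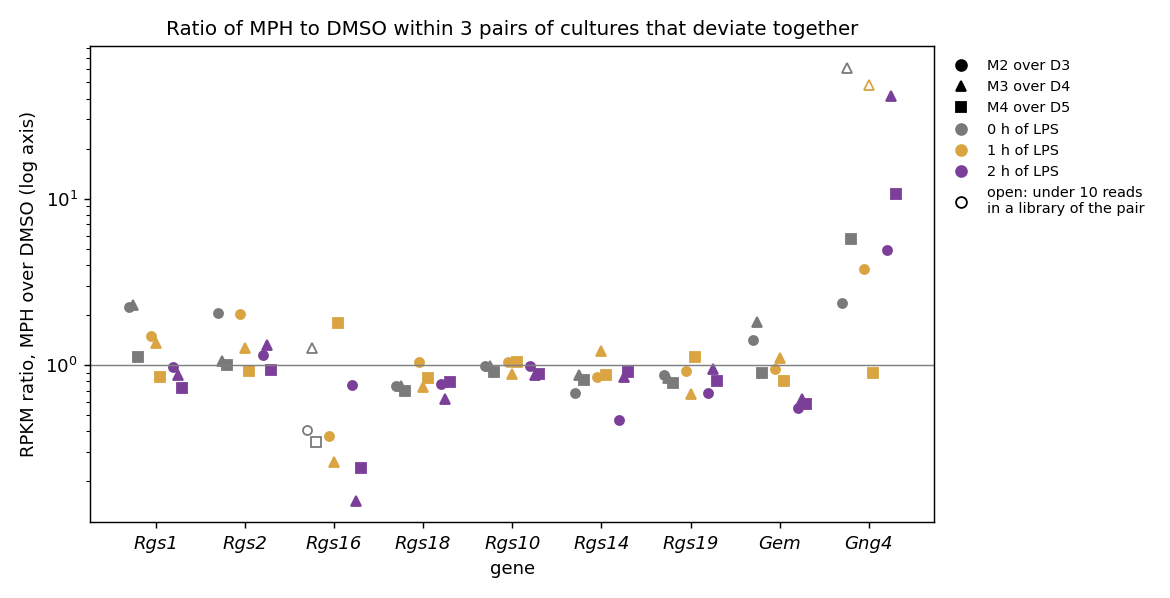
Ratio of RPKM with MPH to RPKM with DMSO (log axis) for each gene within 3 pairs of cultures that deviated together, at 0, 1 and 2 h of LPS. Open symbols mark ratios in which at least 1 library has under 10 reads. At 2 h the 3 ratios of Gng4 lie at 4.89 to 41.7 and those of Gem at 0.549 to 0.628.

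Other genes of the G protein circuit, taken from lists of 64 genes in 6 classes, were seldom called with MPH. At most 0.869% of all genes passed at any time there, so a gene without a call is not shown to be unchanged. Akap10, which encodes a kinase-anchoring protein with RGS-like domains, was the 1 gene of these lists that passed in any of the 3 comparisons. It was at 4.20 RPKM with MPH and 8.88 with DMSO before LPS (means over 3 and 7 cultures), lower by 0.98 than in D3 to D6 (SE 0.18, limma adjusted p = 0.0129). Of 11 other γ subunits, 6 were tested and none passed with MPH. After 2 h of LPS under DMSO 0 of 7 tested γ subunits rose and 3 fell, Gng2 (-0.73), Gngt2 (-0.46) and Gng7 (-0.26). Relative to the median gene only Gng2 passed (-0.49, adjusted p = 0.002). Gng4 was not among the called genes in either direction there.

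Of the 3 other RGK genes only Rrad, which shares with Gem the block of calcium channels, was tested. It rose by 1.27 at 2 h under DMSO (SE 0.26, limma adjusted p = 0.000406), from a mean of 1.52 to 4.77 RPKM, and not past the threshold at 1 h (0.64, adjusted p = 0.0862), where Gem was at its peak. Of the 14 other RGS genes 3 were tested. Rgs12 (-0.62) and Rgs11 (-0.59) fell at 2 h, and none rose. Of 12 tested proteins with other Gα-binding domains 8 fell and none rose at 2 h, including Gpsm2 (-0.86), Akap10 (-0.87) and Arhgef11 (-0.38). The α subunits, which RGS proteins act on, split, with 2 of 8 higher and 4 lower. Gna13 rose by 0.86 and Gna15, a Gq-class subunit of blood cells, and Gna11 fell by 1.29 and 0.82. Of 4 tested β subunits, partners of Gng4, 1 fell (Gnb5, -0.45). These counts stand beside 54.1% of all genes passing in that comparison. Relative to the median gene Rrad, Rgs12 and Rgs11 still passed in the same direction, the Gα-binding list had 2 lower (Gpsm2 and Akap10) and none higher, the α subunits 3 higher and 2 lower, and the β subunits 1 higher (Gnb1, 0.24) and 1 lower (Gnb5, -0.26).

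Over the 30 libraries the genes with the most similar pattern were found for each member by Pearson correlation of log2(RPKM + 0.5). The points share cultures, times and treatments. Gem was most like the chemokine Cxcl2 (0.966), Tnfsf9 (0.959) and Maff (0.956), and Rgs1 most like Mcl1 (0.919), Dusp1 (0.905) and Sgk1 (0.883). Gng4 was most like Odc1, which makes polyamines (0.934), Dusp14 (0.921) and Csf2rb (0.920). Rgs2 came closest to Lpar6 (0.939), E2f2 (0.926) and Zfand2a (0.917), and Rgs16 to Fam133b (0.876), Ccl22 (0.861) and Mycl (0.839). For Rgs18 the nearest were Ogfrl1 (0.947), Prps2 (0.940) and Fancd2 (0.936), and for Rgs14 Ppp1r9b (0.934), Fance (0.930) and Samd1 (0.924). Rgs10 (Aldh9a1, 0.896) and Rgs19 (Mmgt2, 0.894) had the loosest nearest neighbours beside Rgs16. Within the set Rgs1 and Gem correlated at 0.73, Rgs14 and Rgs19 at 0.70, and Rgs2 and Rgs16 at -0.80. Gng4 reached 0.28 with Rgs1 and -0.60 with Rgs10.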

How the data were processed

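RNA-seq values of 30 macrophage libraries were used. The deposited table gives RPKM, computed by the authors, for 44401 RefSeq transcripts, with all 30 value columns matched to a library by name. Per the submitters' processing notes, FastQC, cutadapt, HISAT2 and SAMtools were used with build mm9 (versions not stated). For the read counter, strand use and multimapping reads, settings were not given in the sources used here. No value was 0, and a transcript without reads holds 1 read step, so low values are upper limits. All 30 libraries were of 0, 1 or 2 h of LPS. The step between low values gave an estimate of depth, with GENCODE M21 transcript lengths, and the read numbers given follow from it.

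Values were analysed as log2(RPKM + 0.5), which understates changes of low genes. The limma-trend test (version 3.58.1 in R 4.3.3) was run on genes that reached 1 RPKM in 3 or more libraries. Its p-values had Benjamini-Hochberg adjustment over all of these genes, threshold 0.05. A fit of 21 libraries (D3 to D6, M2 to M4, 10239 genes) gave MPH against DMSO, LPS under MPH and interactions. LPS under DMSO came from the 21 DMSO libraries (10212 genes), fitted with a covariate for the name series (D, r or UKD). The tests were run on simulated data with independent noise for each library, which cannot show how they behave where libraries of a culture deviate together. Libraries of a culture pair across times by name (r of 0.63 to 0.91 between deviations in all 10 cultures), so a culture block was an alternative. The main fits have no such block and treat the libraries of a culture as independent. Their p-values for MPH against DMSO may therefore be too small, and those for LPS, compared within cultures, too large. At 1 h of LPS under DMSO 2071 genes passed in the main fit and 5459 with the culture block. D and M cultures with the same number deviated in opposite directions (r of -0.65 to -0.36), whereas D3 with M2, D4 with M3 and D5 with M4 deviated together. Those pairs were found after seeing the data.

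Other alternatives were constants of 0.1 and 1, no filter, median-of-ratios scaling, the mean over transcript lines, other DMSO cultures, and leaving out libraries. "Relative to the median gene" denotes that scaling. The members, lists and tests were chosen with earlier results of these data known. Named genes are the members, up to 3 called genes with the smallest p per list and comparison, and the 3 genes most like each member.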

Additional observations from a re-analysis of the deposited data

Results flagged for a closer look

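In the 0 h DMSO libraries Rgs1 was at 11.27 RPKM in r1, far below the other 6 cultures (26.7 to 48.1 RPKM). It was the 1 value of 27 checks, 9 genes at 3 times over 7 cultures, that stood apart from its group by Dixon's criterion, which chance meets in about 1 of 20 groups. The cause was not tested. Without r1 at 0 h the rise of Rgs1 at 1 h was still called, as in all 14 removals of a library (limma, 2.10 to 2.49).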

How the results depend on the processing

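Of 90 results, each a member in a comparison, 27 were past the threshold (limma). Over 1770 alternative values no called result changed sign, 65 calls were lost and 29 gained, and 90 uncalled values changed sign, the largest of these being 0.47 in the main analysis. The main moves in the counts of called members were as follows. For MPH against DMSO at 0 h the count of 0 became 1 (Gng4) against all 7 DMSO cultures with or without the covariate, with a replicate block by name number or by pairs, by pairs without the 1 h library labelled M4, and without that library alone. At 1 h 0 became 1 without it, with or without the pairs. At 2 h 1 became 0 with the constant 0.1, 2 with the name-number block and 3 with the pairs without that library. For LPS under DMSO, 6 at 1 h and 5 from 1 to 2 h became 3 and 1 within D3 to D6, where the whole-table counts fell to 406 and 267. The 6 became 4 with median-of-ratios scaling and without the shallow 1 h libraries, 5 with no filter or no covariate, and 8 with culture as a replicate block. The 5 from 1 to 2 h became 8 with culture as a replicate block and 3 without the shallow 1 h libraries of D4, D6 and UKD. The 8 at 2 h became 6 with median-of-ratios scaling and 6 within D3 to D6. The whole-table count of 5529 then fell to 3808 and 2490. With culture as a replicate block (7848 genes) and with the constant 0.1 (5511 genes) the 8 became 9. For LPS under MPH at 2 h, 5 became 3 without the filter, 3 with median-of-ratios scaling, 8 with the culture block and 4 with the mean over transcript lines. The causes were not tested. Leaving out 1 library gave 0, 0 to 1 and 0 to 1 members for MPH at 0, 1 and 2 h, 5 to 6, 8 to 9 and 4 to 6 for LPS under DMSO (1 h, 2 h, 1 to 2 h), 1 to 2 and 2 to 4 under MPH, and 0 for both interactions. An arm left with 2 libraries takes its spread from the other groups. With the name-number block the whole-table counts for MPH were 891, 161 and 803 at the 3 times, in place of 89, 0 and 89. With the pairs they were 760, 0 and 1233. The pairs without the 1 h library labelled M4 gave 1047, 862 and 1590, and its removal alone 165, 137 and 215. For LPS under DMSO the culture block gave 5459 at 1 h and 5023 from 1 to 2 h, in place of 2071 and 2247. Under MPH at 2 h it gave 5577 in place of 2121. Against all 7 DMSO cultures 213 genes passed at 0 h, or 256 with the covariate. In these settings of blocks, DMSO cultures and the 1 h library labelled M4, members gained calls only where the whole table did. The interaction at 2 h had 146 genes with the culture block, none a member. Rgs16 (2 to 452 reads) and Gng4 (3.3 to 875 reads) are limited by depth, the other members less so.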
